A study of Mus musculus with 30 samples.

Results

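The MiT/TFE genes Tfec, Mitf, Tfeb and Tfe3 are the complete family of mammalian MiT/TFE transcription factors, and all 4 of 4 were found among the 37991 gene identifiers of the count table. They were chosen by family membership and by their normalised levels across the 5 groups, which were in view. Their levels and the differences between groups are therefore given as a description, without a test between groups. A limit for outliers only flagged single libraries within a group. All 4 were among the 11030 genes that passed a filter on low counts. RNA was sequenced from 30 libraries of 500 sorted spleen cells each, from 12 female mice aged 9.4 to 15.7 weeks. The TLR7.1 mice overexpress Tlr7, whose product senses single-stranded RNA in endosomes, and the wild-type (WT) mice are of the B6 strain.

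The iHPC (inflammatory hemophagocytes, which engulf blood cells) came from the 6 TLR7.1 mice and were gated as Ly6C- with high CD31, low VCAM, low F4/80 and CD11b. Red pulp macrophages (RPM), which clear aged red blood cells, came from the 6 TLR7.1 and the 6 WT mice and were gated as Ly6C- with low CD31, high VCAM and F4/80, and with no or intermediate CD11b. Ly6C-high monocytes (Mono) came from the same 12 mice and were gated on Ly6C, Ccr2 and CD11b. Every gate took live, CD45.2-positive cells and left out Siglec-F and Ly6G. That makes 5 groups of n = 6, with no iHPC from WT mice, and the labels do not say which promoter or integration drives Tlr7 in the TLR7.1 line.

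MiT/TFE proteins are basic helix-loop-helix leucine zipper factors that bind DNA as dimers formed within the family, at E-boxes and at the CLEAR element found in promoters of lysosomal and autophagy genes. TFEB, TFE3 and MITF are held in the cytoplasm when mTORC1 phosphorylates them at the lysosome, a step that needs Rag GTPases and folliculin, and they enter the nucleus when nutrients are withdrawn or when calcineurin removes the phosphate. TFEC is largely restricted to macrophages, where it is induced by interleukin-4 through STAT6 and its promoter responds to PU.1, while MITF is best known from melanocytes, mast cells and osteoclasts. These levels are of transcripts summed over all isoforms of a gene, and they do not report where the proteins are in the cell.

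The promoter of Tfec is shown because Tfec was the member that differed most between the sorted populations. The 250 bases before its RefSeq start lie on the minus strand at chr6:16898442-16898691 of GRCm38.p6. The capitals mark AGGAAGT, the core of Ets factor sites with a flank that PU.1 favours, which begins 71 bases before the start. Searched on both strands, AGGAAGT was held by 9.35% of the 32851 RefSeq promoter windows of 300 bases, so its presence is a description and not a sign of binding.
Tfec: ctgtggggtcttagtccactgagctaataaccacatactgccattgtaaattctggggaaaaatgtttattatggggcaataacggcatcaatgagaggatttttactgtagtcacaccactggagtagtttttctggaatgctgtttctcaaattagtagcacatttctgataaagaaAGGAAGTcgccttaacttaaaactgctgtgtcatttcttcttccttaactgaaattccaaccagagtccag

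The letters CACGTG (E-box), TCACGTGA (the CLEAR core, which contains CACGTG) and TCATGTG (the M-box bound by MITF) were searched on both strands in the 9 windows of the 4 family genes, and none held any of the 3. Among all windows 7.15% held CACGTG, 0.974% held TCACGTGA and 3.77% held TCATGTG. A second AGGAAGT lay in 1 of the 2 Tfe3 windows, and none lay in the 3 Mitf or the 3 Tfeb windows.

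Library totals ran from 95002 to 1932427 counts, with the shallowest libraries among the RPM and 1 iHPC library at 292507. Tlr7, the overexpressed gene, averaged 995 CPM (counts per 1000000 after scaling by library size) in TLR7.1 Mono and 307 CPM in WT Mono, and 1029 CPM in TLR7.1 RPM and 222 CPM in WT RPM. The gates were visible in the transcripts. Vcam1 averaged 28.9 CPM in iHPC, 2486 CPM in TLR7.1 RPM and 1.87 CPM in TLR7.1 Mono, and Ccr2 averaged 11.8 CPM in iHPC, 1.33 CPM in TLR7.1 RPM and 1528 CPM in TLR7.1 Mono. The CD31 gene Pecam1 averaged 516 CPM in iHPC, 123 CPM in TLR7.1 RPM and 13.0 CPM in TLR7.1 Mono. Transcripts of other cells were present as well. A list of 14 basophil and mast cell genes summed to between 2.78 and 4698 CPM in iHPC, and to at most 21.4 CPM in any library of the other groups.

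Tfec was almost undetected in iHPC and present in every other library. Of the 6 iHPC libraries, 5 held 0 counts of Tfec, and mouse 24380, whose iHPC library was the shallowest of the group, held 2 counts or 7.04 CPM. A count of 0 allowed up to 2.11 to 3.30 counts per 1000000 unscaled counts in those 5 libraries, at a limit of 3 counts per library. In TLR7.1 RPM the lowest, median and highest levels were 16.0, 44.2 and 185 CPM, and in TLR7.1 Mono they were 59.5, 76.6 and 132 CPM. In WT RPM they were 69.7, 114 and 203 CPM, and in WT Mono 20.1, 23.95 and 73.2 CPM. The iHPC libraries therefore lay below all 24 others, and no other pair of groups was separated for Tfec. The separation from TLR7.1 RPM was narrow in counts. The lowest TLR7.1 RPM library, of mouse 24380, held 4 Tfec counts of 268275, beside 2 of 292507 in the iHPC library of that mouse.

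Over pooled counts, 2 of 6004058 counts were Tfec in iHPC, against 378 of 4487312 in TLR7.1 RPM and 805 of 9396307 in TLR7.1 Mono. The share was 253 times lower in iHPC than in TLR7.1 RPM, with a 95% exact interval of 69.5 to 2096 times. Against TLR7.1 Mono it was 257 times lower, with an interval of 71.0 to 2127 times. These intervals cover counting error only. They pool the 6 mice of a group and leave out the spread between mice. Tfec was chosen with its levels in view, so they are no test of a difference. Mouse 24107 gave 239 of the 378 TLR7.1 RPM counts, and without that mouse the share was 110 times lower in iHPC than in TLR7.1 RPM and 194 times lower than in TLR7.1 Mono. Without mouse 24380 no Tfec count was left in iHPC, and the share was at least 169 times lower in both comparisons, at a limit of 3 counts over the group. The fitted log2 fold change was -7.17 ± 0.78 (SE, n = 6 each) for iHPC over TLR7.1 RPM and -7.56 ± 0.77 for iHPC over TLR7.1 Mono. Without mouse 24380, whose library held both Tfec counts of the group, those values were -9.43 and -9.68, so their size depends on how near 0 the iHPC counts lie. Of all genes tested, 11.2% had iHPC and TLR7.1 RPM libraries that did not overlap and 31.9% had iHPC and TLR7.1 Mono libraries that did not overlap. Tfec was the 1 member among the 4 in either comparison. In sorted bulk samples, fewer cells that express a gene and less RNA per cell cannot be told apart.

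**Figure D1:**
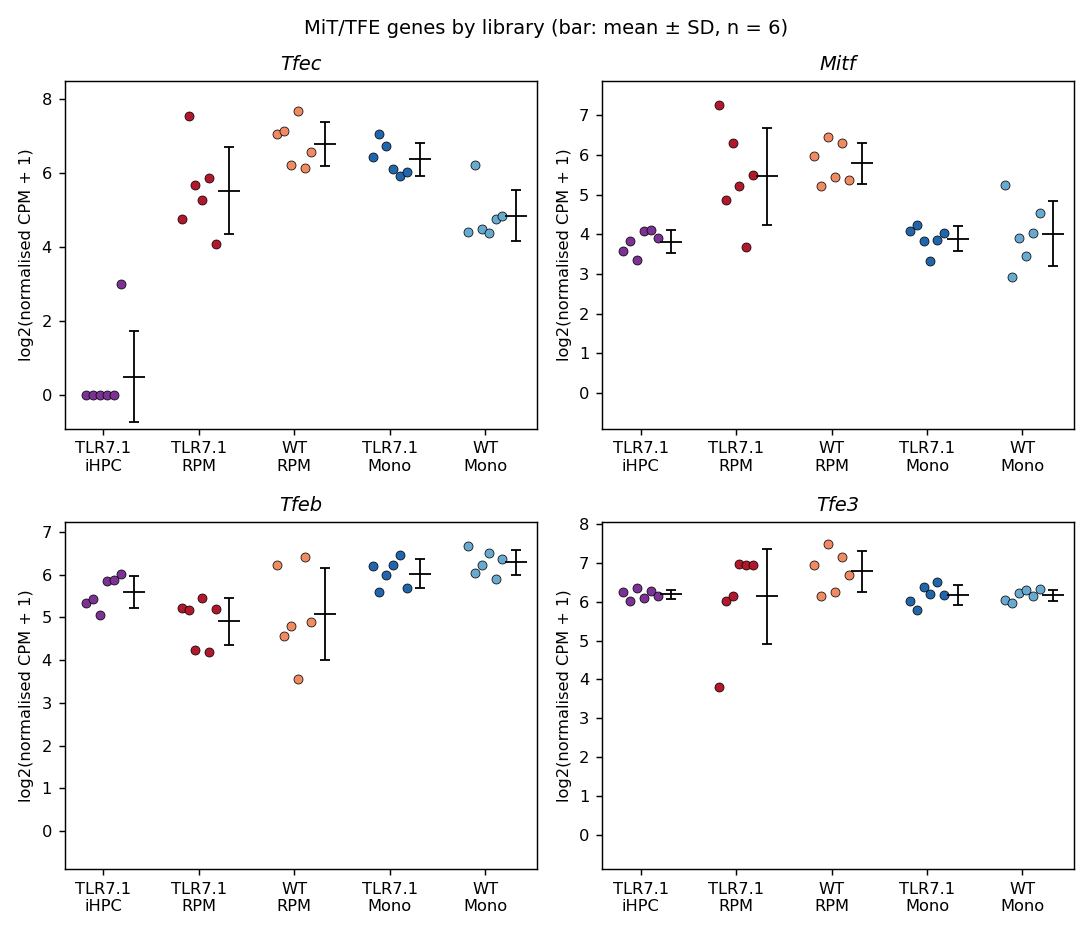
Levels of the 4 MiT/TFE genes in each of the 30 libraries, as log2(normalised CPM + 1) on the vertical axis, by group on the horizontal axis; each point is a library and the bar beside the points is the mean ± SD of the log2 values (n = 6). For Tfec 5 of the 6 iHPC points sit at 0 and the other at 7.04 CPM, below every point of the other groups, while Tfe3 points of iHPC lie between 64.3 and 80.5 CPM.

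The order of the mean Tfec levels was WT RPM with 119 ± 50.7 CPM, TLR7.1 Mono with 85.8 ± 28.2 CPM, TLR7.1 RPM with 62.2 ± 62.2 CPM, WT Mono with 31.5 ± 20.7 CPM and iHPC with 1.17 ± 2.88 CPM (SD, n = 6 each). Neighbours in that order overlapped in range, except WT Mono and iHPC. The high mean of TLR7.1 RPM rested on mouse 24107, whose library held 185 CPM while the other 5 lay at 57.4 CPM or lower. That library also held the highest sum of 9 T and NK cell genes of its group, 1367 CPM, and the highest sum of 5 plasma cell genes, 2399 CPM. Within its group its sum of 9 neutrophil genes was the highest, at 420 CPM. Its sum of 10 red pulp macrophage genes, 7236 CPM, and its Tlr7 level, 497 CPM, were the lowest. Whether those transcripts bear on its Tfec level was not tested. The library of mouse 24107 was also the 1 library through which the ranges of TLR7.1 RPM and WT RPM overlapped.

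The fitted genotype differences of Tfec had opposite signs in the 2 populations. In Mono the level averaged 85.8 CPM in TLR7.1 and 31.5 CPM in WT, a log2 fold change of 1.44 ± 0.44 (SE), and 5 of the 6 WT libraries lay at or below 27.6 CPM, under all 6 TLR7.1 libraries. In RPM it averaged 62.2 CPM in TLR7.1 and 119 CPM in WT, a log2 fold change of -0.81 ± 0.45. The effect of genotype in RPM less that in Mono was -2.25 ± 0.62 on the log2 scale. Neutrophil transcripts moved with the genotype in Mono. A list of 9 genes summed to between 116 and 1588 CPM in TLR7.1 Mono and to between 1.55 and 7.85 CPM in WT Mono. In RPM the list summed to between 8.67 and 420 CPM in TLR7.1 and to between 0 and 15.4 CPM in WT. Their part in the Tfec levels was not tested. Libraries of the genotypes overlapped in both populations, and 0 of the 4 members were separated between TLR7.1 and WT, where 4.17% of all genes were in Mono and 1.72% in RPM. Without mouse 24107 the RPM value was -1.54, and without mouse 24117, whose WT Mono library held 73.2 CPM, the Mono value was 1.89. Within the 3 collection dates the difference of mean log2(CPM + 1) between TLR7.1 and WT Mono was 1.42, 1.62 and 1.68, and between TLR7.1 and WT RPM it was -0.96, -2.11 and -1.43.

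RPM over Mono therefore gave a different value in each genotype. In WT mice Tfec was 1.86 ± 0.45 log2 units higher in RPM than in Mono and higher in RPM in 6 of 6 mice. In TLR7.1 mice the log2 fold change was -0.39 ± 0.43, and RPM held more than Mono in 1 of 6 mice. Without mouse 24107, that 1 mouse, the TLR7.1 value was -0.96.

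Mitf had its highest mean levels in RPM. Its lowest, median and highest levels were 9.25, 13.7 and 16.4 CPM in iHPC and 11.9, 40.2 and 151 CPM in TLR7.1 RPM. In WT RPM they were 36.0, 52.4 and 86.4 CPM, in TLR7.1 Mono 9.09, 14.4 and 17.9 CPM, and in WT Mono 6.54, 14.6 and 36.8 CPM. The iHPC libraries lay within the range of both Mono groups, whereas 5 of 6 TLR7.1 RPM libraries lay above every iHPC library.

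The log2 fold change of Mitf was -2.08 ± 0.45 for iHPC over TLR7.1 RPM and -0.08 ± 0.45 for iHPC over TLR7.1 Mono. RPM over Mono gave 2.004 ± 0.44 in TLR7.1 mice and 1.74 ± 0.44 in WT mice, with RPM higher in 5 of 6 and 6 of 6 mice. TLR7.1 over WT gave -0.04 ± 0.43 in RPM and -0.30 ± 0.43 in Mono. The TLR7.1 RPM libraries varied widely, with a mean of 58.2 ± 50.5 CPM. Within dates, the difference of mean log2(CPM + 1) between iHPC and TLR7.1 RPM was -2.34 on 13 December, -0.35 on 21 December and -2.26 on 26 December. Both TLR7.1 RPM libraries of 21 December were among the 3 lowest, with 36.5 and 11.9 CPM.

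Markers of the cells best known for Mitf were examined beside it. Of 10 melanocyte genes, Tyr, Tyrp1, Dct, Slc45a2 and Gpr143 had 0 counts in all 30 libraries. The list summed to at most 2.22 CPM in an iHPC library, 27.9 CPM in a TLR7.1 RPM library, 6.43 CPM in a WT RPM library, 4.19 CPM in a TLR7.1 Mono library and 2.62 CPM in a WT Mono library. The basophil and mast cell list summed to 2.78 CPM in the iHPC library of mouse 24261, which held 9.25 CPM of Mitf and 0 counts of Tfec. In the other 5 iHPC libraries it summed to between 2557 and 4698 CPM, beside 10.96 to 16.4 CPM of Mitf. Of the 14 genes on that list, the mast cell genes Tpsb2, Tpsab1 and Mcpt4 had 0 counts in all 6 iHPC libraries. All others had counts in iHPC, among them the mast cell gene Cma1, which had 0 counts in every other group. Without the iHPC library of mouse 24261 the log2 fold change of iHPC over TLR7.1 RPM was -1.99 for Mitf and -6.95 for Tfec. The part of basophil and mast cell transcripts in the Mitf level was not tested.

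Tfeb had its highest mean levels in Mono. Its lowest, median and highest levels were 32.4, 49.6 and 63.4 CPM in iHPC and 17.3, 35.4 and 42.9 CPM in TLR7.1 RPM. In WT RPM they were 10.7, 27.9 and 83.7 CPM, in TLR7.1 Mono 47.4, 67.8 and 86.8 CPM, and in WT Mono 58.3, 77.8 and 102 CPM. All TLR7.1 RPM libraries lay below all TLR7.1 Mono libraries, with a log2 fold change of -1.11 ± 0.32, and 27.2% of all genes were separated in that comparison. In WT mice RPM over Mono gave -0.85 ± 0.32, with RPM lower in 5 of 6 mice, and 0 of the 4 members were separated, where 26.1% of all genes were.

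The iHPC stood between the other populations for Tfeb. The log2 fold change was 0.66 ± 0.33 for iHPC over TLR7.1 RPM, with iHPC higher in 6 of 6 mice, and -0.45 ± 0.31 for iHPC over TLR7.1 Mono, with iHPC lower in 5 of 6 mice. The ranges overlapped in both. TLR7.1 over WT gave -0.51 ± 0.34 in RPM and -0.25 ± 0.30 in Mono. The WT RPM values spread most, with 74.0 and 83.7 CPM in 2 libraries, 22.5 to 28.7 CPM in 3 and 10.7 CPM, from 1 count, in the library of 95002 counts. Within dates the sign of the RPM genotype difference was not constant, with -0.20, 1.28 and -0.65 log2 units.

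Tfe3 had log2 fold changes within 0.72 of 0 in all 6 comparisons, although Mitf lay nearer to 0 between TLR7.1 and WT RPM. Its lowest, median and highest levels were 64.3, 73.2 and 80.5 CPM in iHPC and 13.0, 96.3 and 126 CPM in TLR7.1 RPM. In WT RPM they were 70.8, 114 and 178 CPM, in TLR7.1 Mono 54.2, 72.2 and 89.8 CPM, and in WT Mono 61.5, 71.7 and 80.3 CPM. The iHPC and both Mono groups differed by less than the spread of their libraries, at means of 72.6, 72.6 and 71.3 CPM.

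The log2 fold change of Tfe3 was -0.25 ± 0.29 for iHPC over TLR7.1 RPM and 0.00 ± 0.28 for iHPC over TLR7.1 Mono. RPM over Mono gave 0.25 ± 0.28 in TLR7.1 mice and 0.72 ± 0.28 in WT mice, where RPM were higher in 5 of 6 mice. TLR7.1 over WT gave -0.44 ± 0.29 in RPM and 0.03 ± 0.28 in Mono. The TLR7.1 RPM library of mouse 24068 held 13.0 CPM from 5 counts, far from the other 5 at 63.6 CPM or more, and the same library held the highest Mitf level of the study, 151 CPM. The sign of iHPC against TLR7.1 RPM changed between dates, with 1.24, -0.77 and -0.30 log2 units.

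**Figure D2:**
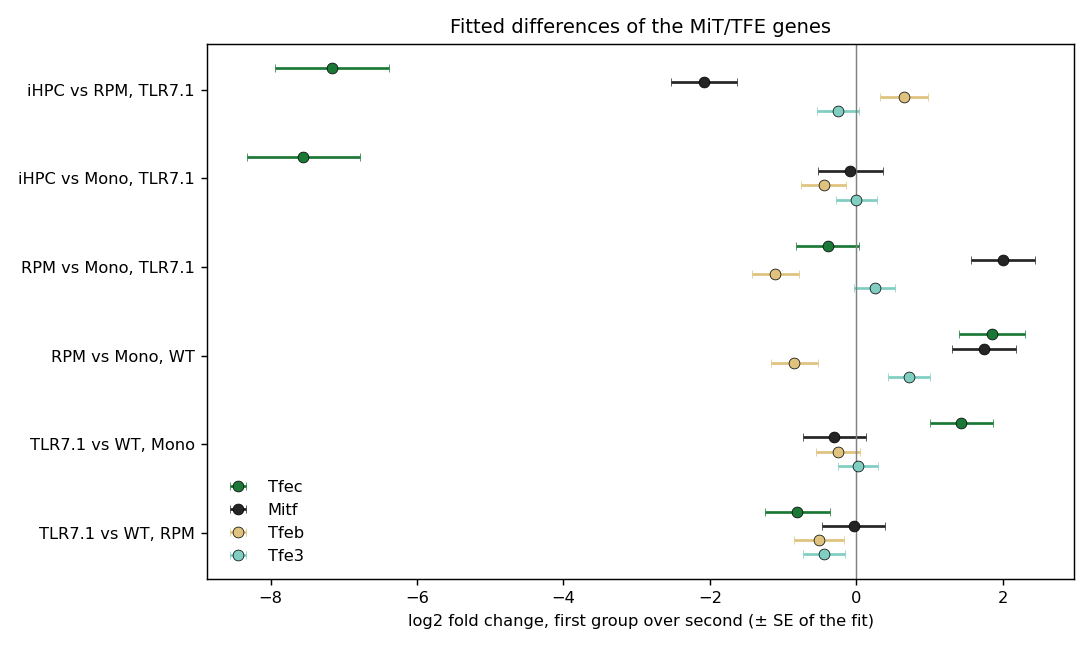
Fitted log2 fold changes (first group over second) of the 4 genes in 6 comparisons; points are estimates from a fit to all 30 libraries and bars are ± 1 SE. Tfec lies at -7.17 and -7.56 in both comparisons of iHPC, while the other 3 genes lie between -2.08 and 2.004 in all 6 comparisons.

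Because the 4 genes differ in exon length, from 5594 bases for Tfec to 9261 bases for Tfe3, levels were compared between genes per kilobase. Each length was the union of all annotated exons of a gene, which need not be the length of the transcripts present. The summed level of the family was 18.8 ± 2.70 CPM per kb in iHPC, against 35.3 ± 8.09 in TLR7.1 RPM, 50.3 ± 7.76 in WT RPM, 37.1 ± 3.92 in TLR7.1 Mono and 30.0 ± 3.51 in WT Mono. The iHPC libraries, at 15.9 to 22.3 CPM per kb, lay below every library of the other groups, of which the lowest held 25.0. The sum of Mitf, Tfeb and Tfe3 without Tfec was 18.6 ± 2.40 CPM per kb in iHPC, 24.2 ± 5.65 in TLR7.1 RPM, 29.0 ± 11.3 in WT RPM, 21.7 ± 3.45 in TLR7.1 Mono and 24.4 ± 4.38 in WT Mono, with overlapping ranges.

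The make-up of the family differed between groups in the same way as the single levels. In iHPC the share of the summed level per kb was 0.94 ± 2.30% for Tfec, 11.4 ± 1.59% for Mitf, 45.2 ± 5.70% for Tfeb and 42.5 ± 7.73% for Tfe3. Tfeb was the largest share in 4 iHPC libraries and Tfe3 in the other 2. Before division by exon length Tfe3 had the higher mean in iHPC, 72.6 CPM against 48.8 CPM for Tfeb. The order of these 2 genes therefore depends on the lengths used. In TLR7.1 RPM the shares were 28.6 ± 20.5% for Tfec, 27.0 ± 22.4% for Mitf, 15.7 ± 5.55% for Tfeb and 28.7 ± 17.9% for Tfe3, and no single gene led in most libraries. In WT RPM Tfec led in 4 of 6 libraries with a mean share of 43.0 ± 18.01%. In TLR7.1 Mono Tfec led in 4 of 6 with 40.9 ± 10.2%, whereas in WT Mono Tfeb led in 5 of 6 with 46.0 ± 6.90% and Tfec made up 18.7 ± 11.1%.

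**Figure D3:**
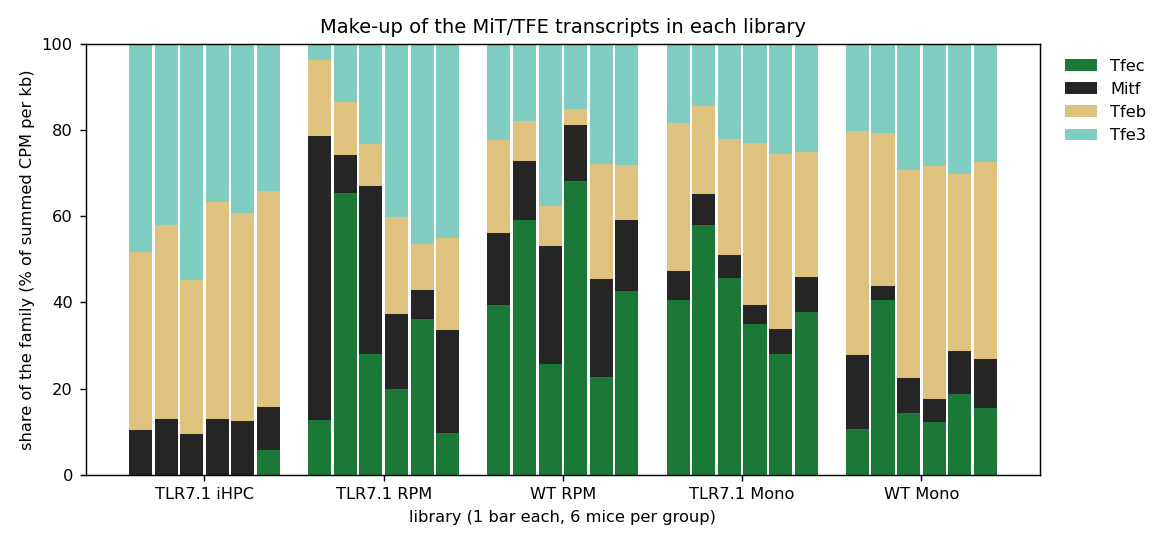
Share of Tfec, Mitf, Tfeb and Tfe3 in the summed level per kb of the family, as a percentage on the vertical axis, with 1 bar per library and 6 libraries per group. The Tfec segment is absent from 5 of the 6 iHPC bars and reaches 5.64% in the other, while Mitf takes up to 66.1% of a TLR7.1 RPM bar.

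Levels of genes known to act on Tfec were compared next, with edgeR's quasi-likelihood test and Benjamini-Hochberg adjusted p-values over all 11030 genes. Of 7 genes on this list, 2 were higher and 1 was lower in iHPC than in TLR7.1 RPM, where 27.1% of all genes were called in either direction. Against TLR7.1 Mono 1 was higher and 3 were lower in iHPC, where 38.7% of all genes were called, but leaving out single mice gave 1 (without mouse 24304) to 3 calls in place of 4. Spi1, which encodes PU.1, was abundant in iHPC, at 558 ± 68.8 CPM, against 309 ± 63.1 CPM in TLR7.1 RPM and 747 ± 91.3 CPM in TLR7.1 Mono. It rose in iHPC over TLR7.1 RPM by 0.85 ± 0.17 log2 units (edgeR adjusted p = 0.000241). Against TLR7.1 Mono its log2 fold change was -0.42 ± 0.17 (edgeR adjusted p = 0.0449), a call lost without any 1 of 5 of the 6 TLR7.1 mice, with no filter on low counts, and with the mouse as a replicate block.

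Il13ra1, the chain that pairs with IL-4Rα in the type II interleukin-4 receptor, was the gene of this list with the largest change. Its lowest, median and highest levels were 0.00, 2.93 and 22.9 CPM in iHPC, 2.60, 28.1 and 61.8 CPM in TLR7.1 RPM and 322, 419 and 438 CPM in TLR7.1 Mono. All iHPC libraries lay far below all TLR7.1 Mono libraries and overlapped with those of TLR7.1 RPM. It fell in iHPC relative to Mono, with a log2 fold change of -6.01 ± 0.50 (edgeR adjusted p = 1.22e-11), and relative to TLR7.1 RPM, with -2.51 ± 0.53 (edgeR adjusted p = 0.000411). In WT mice it averaged 101 ± 54.6 CPM in RPM and 462 ± 94.9 CPM in Mono, so that, unlike Tfec, it was lower in RPM than in Mono in both genotypes. Il4ra, the chain that both types of interleukin-4 receptor share, averaged 94.8 ± 27.1 CPM in iHPC, 99.1 ± 37.4 CPM in TLR7.1 RPM and 86.8 ± 14.2 CPM in TLR7.1 Mono and was not called in either comparison of iHPC. Stat6, the signal transducer behind that receptor, averaged 165 ± 18.1 CPM in iHPC, 151 ± 59.0 CPM in TLR7.1 RPM and 233 ± 20.3 CPM in TLR7.1 Mono. Its log2 fold change of iHPC over Mono was -0.51 ± 0.18 (edgeR adjusted p = 0.0256), lost without any 1 of 3 mice.

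**Figure D4:**
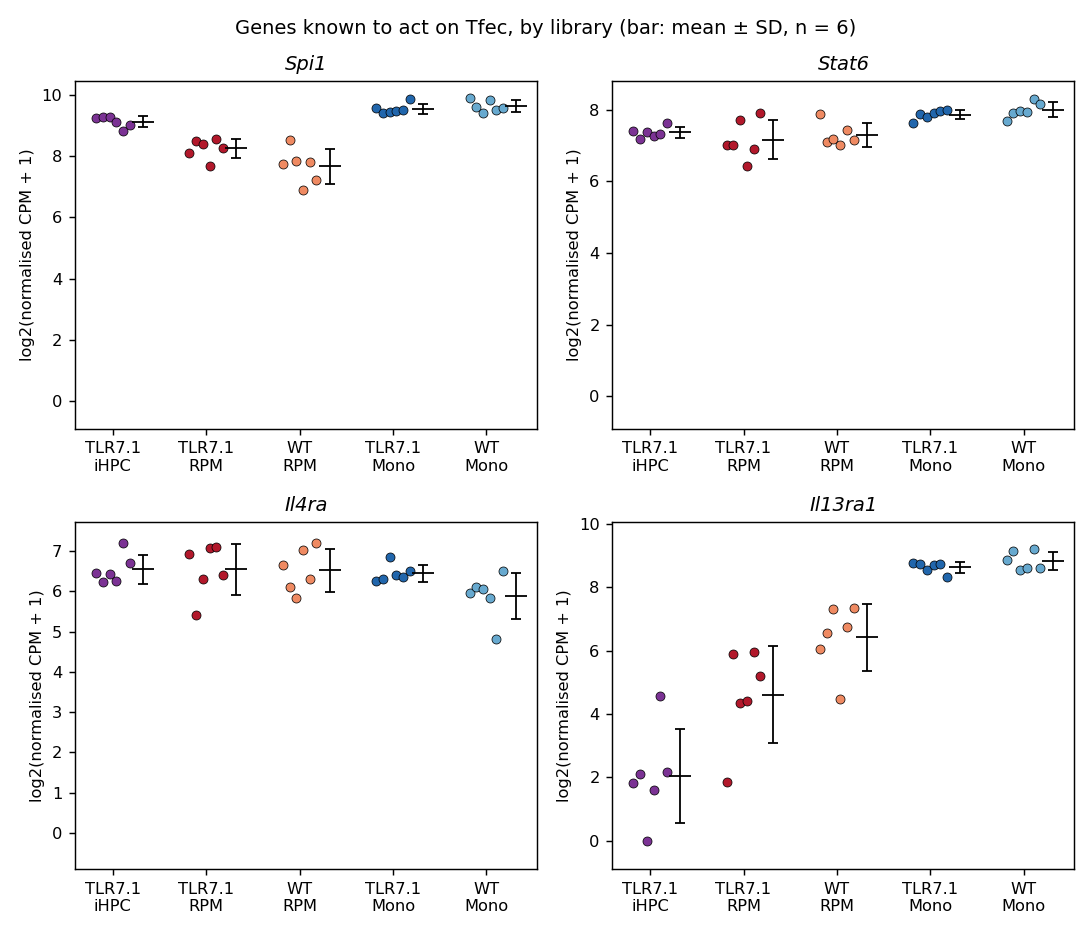
Levels of Spi1, Stat6, Il4ra and Il13ra1 in each library, as log2(normalised CPM + 1) on the vertical axis, by group on the horizontal axis; points are libraries and bars are the mean ± SD of the log2 values (n = 6). Spi1 is at or above 118 CPM in all 30 libraries, while Il13ra1 is at or below 22.9 CPM in iHPC and at or above 322 CPM in all Mono libraries.

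Genes that hold the family in the cytoplasm or release it, 26 in all, included 4 higher and 4 lower in iHPC than in TLR7.1 RPM, with a median log2 fold change of 0.04, beside -0.00 over all genes tested. That is 30.8% of the list, near the 27.1% of all genes called, and the count of 8 fell to 5 without mouse 24068 and to 4 without mouse 24304. Rragd, a Rag GTPase and itself a known target of the family, had 4.24 CPM in iHPC and 41.4 CPM in TLR7.1 RPM, a log2 fold change of -3.13 ± 0.81 (edgeR adjusted p = 0.00369). Rptor, the mTORC1 subunit that recruits substrates, had 33.5 CPM in iHPC and 10.8 CPM in TLR7.1 RPM, a log2 fold change of 1.70 ± 0.40 (edgeR adjusted p = 0.00159). Against TLR7.1 Mono, 9 were higher and 2 lower in iHPC, or 42.3% of the list beside 38.7% of all genes. Of all genes 19.3% were higher and 19.4% lower. Rptor was among the higher ones, at 33.5 CPM in iHPC and 14.5 CPM in TLR7.1 Mono (log2 fold change 1.16 ± 0.37, edgeR adjusted p = 0.0122). So was Fnip2, at 56.4 and 25.2 CPM (1.125 ± 0.45, edgeR adjusted p = 0.0447), a call lost in 8 of 14 alternatives. Rraga, another Rag GTPase, was lower, at 24.5 CPM in iHPC and 69.2 CPM in TLR7.1 Mono (log2 fold change -1.53 ± 0.37, edgeR adjusted p = 0.00126). The list mixes genes that retain the factors with genes that release them, so the direction of calls has no single reading. RPM over Mono gave 8 higher and 2 lower in TLR7.1 mice, a count of 10 that fell to 6 without mouse 24261 and to 5 without mouse 24304, where 46.6% of all genes were called, and 6 higher and 3 lower in WT mice, where 46.2% were. By direction the shares of all genes were 23.9% higher and 22.6% lower in TLR7.1 mice, and 23.7% higher and 22.5% lower in WT mice. Rragd was among the higher ones in both, with log2 fold changes of 6.21 ± 0.99 and 3.46 ± 0.84 (edgeR adjusted p = 3.85e-06 and 0.000928).

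Of 62 listed CLEAR targets 60 were tested. In iHPC 4 were higher and 18 lower than in TLR7.1 RPM, with a median log2 fold change of -0.22, and 5 were higher and 24 lower than in TLR7.1 Mono, with a median of -0.40. Over all genes tested 13.6% were higher and 13.5% lower in iHPC than in TLR7.1 RPM, 19.3% were higher and 19.4% lower than in TLR7.1 Mono, and the medians were -0.00 and 0.00. Among hydrolases, Ctsd, the protease cathepsin D, averaged 395 ± 51.4 CPM in iHPC and 1393 ± 498 CPM in TLR7.1 RPM, and was lower in iHPC (log2 fold change -1.81 ± 0.18, edgeR adjusted p = 7.41e-10). Its means in the other groups were 348 CPM in TLR7.1 Mono, 277 CPM in WT Mono and 1190 CPM in WT RPM, so iHPC were not below Mono. Against the direction of most, Cd63, a lysosomal tetraspanin, was 5.59 ± 0.50 log2 units higher in iHPC than in TLR7.1 Mono (edgeR adjusted p = 6.08e-11). Cd63 was also 5.14 ± 0.50 log2 units higher in TLR7.1 RPM than in TLR7.1 Mono (edgeR adjusted p = 2.39e-10). Its means were 145 CPM in iHPC, 107 CPM in TLR7.1 RPM and 2.79 CPM in TLR7.1 Mono.

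Other CLEAR groups gave the following counts. Of 13 proton pump subunits tested, 0 were higher and 4 lower in iHPC than in TLR7.1 RPM and 1 was higher and 5 lower than in TLR7.1 Mono, among them Atp6v1b2 at 294 CPM in iHPC and 947 CPM in TLR7.1 Mono (log2 fold change -1.69 ± 0.15, edgeR adjusted p = 8.26e-11). Atp6v1b2 was also lower in TLR7.1 RPM, at 364 CPM, than in TLR7.1 Mono (log2 fold change -1.38 ± 0.15, edgeR adjusted p = 4.22e-09). The proton pump calls were 30.8% of the subunits against TLR7.1 RPM and 46.2% against TLR7.1 Mono, beside 27.1% and 38.7% of all genes. The count of 4 against TLR7.1 RPM was 0 without mouse 24304, 1 or 2 without mouse 24068, 24261, 24308 or 24380, and 4 without mouse 24107. Of 14 autophagy genes tested, 0 were higher and 4 lower than in TLR7.1 RPM, among them Ulk1, the kinase that starts autophagy, with a log2 fold change of -1.87 ± 0.38 (edgeR adjusted p = 0.000299), and Gabarapl1, a ubiquitin-like protein of the autophagosome, with -1.44 ± 0.26 (edgeR adjusted p = 5.94e-05). Gabarapl1 averaged 31.0 CPM in iHPC, 83.9 CPM in TLR7.1 RPM and 35.9 CPM in TLR7.1 Mono. For Ulk1 the means were 17.4, 66.4 and 32.9 CPM. Against TLR7.1 Mono 0 of the autophagy genes were higher and 5 lower in iHPC. The autophagy calls were 28.6% and 35.7% of the list in these comparisons, near the 27.1% and 38.7% of all genes. RPM over Mono gave 13 higher and 22 lower CLEAR targets in TLR7.1 mice, or 58.3% beside 46.6% of all genes, and 19 higher and 20 lower in WT mice, or 65.0% beside 46.2%.

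**Figure D5:**
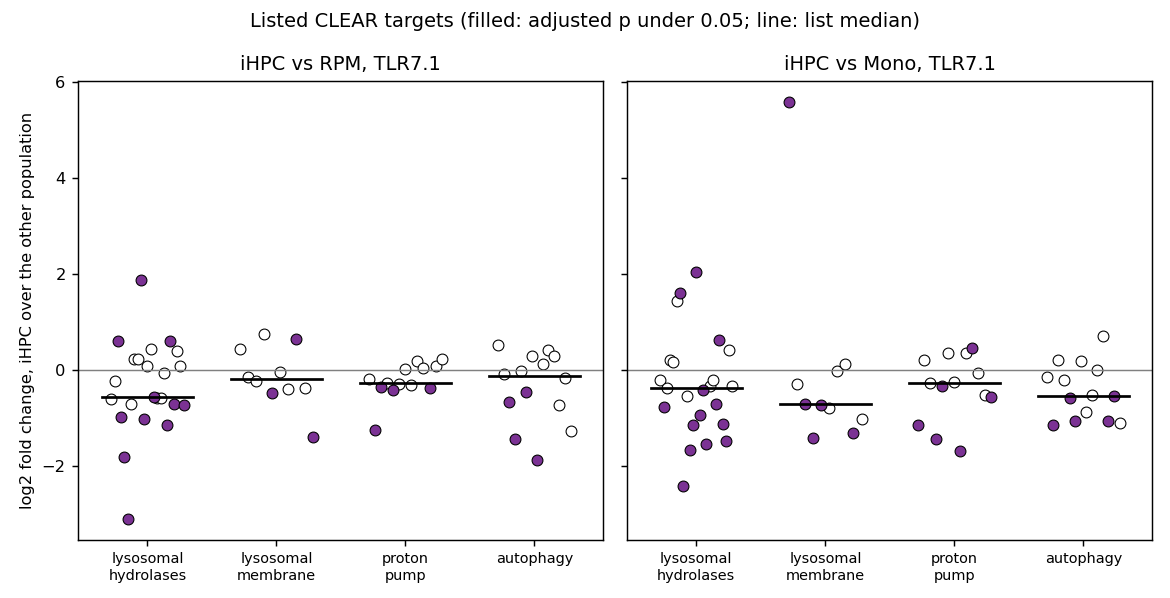
Log2 fold changes of iHPC over TLR7.1 RPM (left) and over TLR7.1 Mono (right) for the 60 tested CLEAR targets in 4 lists; each point is a gene, filled where the edgeR adjusted p was under 0.05, and the line is the median of the list. The medians of the 4 lists lie between -0.56 and -0.12 in the left panel and between -0.72 and -0.28 in the right panel, while Cd63 stands at 5.59 in the right panel.

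Sites of the CLEAR core are shown for the CLEAR genes that the naming rule took, to give the sequence that MiT/TFE factors are known to read. Of those 31 genes 25 had a RefSeq promoter window and 7 held TCACGTGA. Each line gives 30 bases on the strand of the gene with the core in capitals, taking the site nearest to the start. The sites lie, in GRCm38.p6, at chr8:105566050-105566079 (Atp6v0d1, minus strand), chr7:142387908-142387937 (Ctsd, minus), chrX:134601182-134601211 (Gla, minus), chr8:3500462-3500491 (Mcoln1, plus), chr14:50930886-50930915 (Pip4p1, minus), chr11:55204325-55204354 (Slc36a1, plus) and chr5:123573010-123573039 (Vps33a, minus).
Atp6v0d1: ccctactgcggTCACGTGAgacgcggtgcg
Ctsd: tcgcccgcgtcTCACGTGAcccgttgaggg
Gla: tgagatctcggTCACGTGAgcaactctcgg
Mcoln1: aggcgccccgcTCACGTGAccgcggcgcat
Pip4p1: gggccagcctgTCACGTGAgcggggcggca
Slc36a1: gggagccagcaTCACGTGAcagggcccgga
Vps33a: tgaacgtcccgTCACGTGAcgcaggcggcg

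A promoter window was at hand for 46 of the 62 CLEAR genes, so no share over that list is given.

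Of 14 genes known as targets of the family in macrophages and osteoclasts 8 were tested, and 3 were higher and 2 lower in iHPC than in TLR7.1 RPM, or 62.5% beside 27.1% of all genes. The count of 5 fell to 3 without mouse 24107. A high share of calls was not particular to that comparison. For iHPC over TLR7.1 Mono 62.5% were called, beside 38.7% of all genes. RPM over Mono gave 75.0% in TLR7.1 mice and 62.5% in WT mice, beside 46.6% and 46.2%. Csf1r, the receptor for macrophage colony-stimulating factor, averaged 464 ± 96.2 CPM in iHPC and 1213 ± 420 CPM in TLR7.1 RPM (log2 fold change -1.39 ± 0.18, edgeR adjusted p = 3.09e-07). Csf3r, the receptor for granulocyte colony-stimulating factor, averaged 133 CPM in iHPC and 44.4 CPM in TLR7.1 RPM (log2 fold change 1.57 ± 0.19, edgeR adjusted p = 7.18e-08). Acp5, the tartrate-resistant acid phosphatase that MITF and TFE3 activate in osteoclasts, averaged 945 CPM in iHPC, where its libraries ran from 786 to 1060 CPM, against 72.6 to 138 CPM in TLR7.1 Mono. It rose in iHPC over TLR7.1 Mono by 3.24 ± 0.19 log2 units (edgeR adjusted p = 2.03e-15). Acp5 was also higher in TLR7.1 RPM, at 676.5 CPM, than in TLR7.1 Mono (log2 fold change 2.75 ± 0.19, edgeR adjusted p = 6.56e-14). Ocstamp, needed for osteoclast fusion, had 0 counts in all 6 iHPC libraries, 9 counts over the TLR7.1 RPM libraries and 202 counts over the TLR7.1 Mono libraries.

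Among 17 tested genes for other E-box factors, 0 were higher and 2 lower in iHPC than in TLR7.1 RPM, and 0 were higher and 4 lower than in TLR7.1 Mono. These are 11.8% and 23.5% of the list, beside 27.1% and 38.7% of all genes, and the count of 2 was 1 without mouse 24068 or 24308 and 5 without mouse 24380. Usf1, a factor that binds the same CACGTG core, averaged 55.3 CPM in iHPC and 130 CPM in TLR7.1 Mono (log2 fold change -1.19 ± 0.26, edgeR adjusted p = 0.000375). Between genotypes few listed genes were called. In Mono 1 of the 115 tested genes of all pathway lists passed, or 0.9%, where 2.1% of all genes were called. That gene was Mxd3, a partner of Max, at 75.3 CPM in TLR7.1 and 4.50 CPM in WT (log2 fold change 4.01 ± 0.72, edgeR adjusted p = 0.00064). In RPM 11 of the 115 passed, or 9.6%, near the 8.25% of all genes, and that count ran from 2 to 16 as single mice were left out. It held Il13ra1, at 33.1 CPM in TLR7.1 and 101 CPM in WT (log2 fold change -1.59 ± 0.42, edgeR adjusted p = 0.0157), a call lost without mouse 24214, without mouse 24416 and in a fit to the 12 libraries compared.

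The genes whose pattern was most like that of each member were taken by Pearson's r of log2(CPM + 1) over the 30 libraries, among 7576 protein-coding genes that averaged at least 20 CPM. These values describe libraries that share mice, gates and depth, and no p is given. For Tfec they were Bco2, Pak1, Pla2g7, Aplp2 and Mgst1, with r of 0.85 to 0.86. For Mitf they were Klhl9, Rxra, Snx5, Dmac1 and Dip2c, with r of 0.82 to 0.85. For Tfeb they were Skint3, Cmtm6, Socs6, Pfkfb4 and Csnk1e, with r of 0.79 to 0.83, and for Tfe3 Mrtfb, Phf23, Ice1, Fam173a and Foxo1, with r of 0.78 to 0.86.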

How the data were processed

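Per the labels' protocols, SMART-Seq v4 cDNA of 500 sorted cells was made into Nextera XT libraries. TopHat, Bowtie, HTSeq 0.4.1, SAMtools, Picard, CASAVA 1.8.2 and FastQC are named in the submitters' processing notes, as is the build NCBIM37, with no role or order. No source used here gives the strand setting or annotation release. In GENCODE M21 0 other genes have exons that overlap those of the 4 members. The authors deposited whole-number read counts per Ensembl gene, without normalization, for 30 libraries, and 0 columns were left without a sample. Symbols and exon lengths came from GENCODE M21 (GRCm38) by identifier, which gave a symbol to 99.11% of the counts.

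Genes were kept by filterByExpr, counts were scaled by TMM, and edgeR 4.0.16 (limma 3.58.1, R 4.3.3) fitted a robust quasi-likelihood model with 1 mean per group to all 30 libraries. CPM are counts per 1000000 of TMM-scaled library size, and the SE of a log2 fold change is its size divided by the square root of F. Two-sided p-values received Benjamini-Hochberg adjustment over all 11030 genes, with calls at adjusted p under 0.05. The fit was tested on simulated data, in which only genes that averaged over 20 CPM were changed. A fall as large as that of Tfec in iHPC was not covered. In each pathway list and comparison the rule named up to 3 called genes of at least 20 CPM with the largest fold changes and the largest one against the direction of most, and 5 genes most like each member. The members and lists were chosen with earlier results of these data known. Libraries with the same number come from the same mouse, per the labels, and the deviations of the 24 such pairs from their group means correlated by -0.08 to 0.20. Alternatives were size factors by the DESeq2 method, the test of DESeq2 1.42.0, no filter on low counts, only the compared libraries, the mouse or the date as a term, and leaving out each mouse or the libraries under 500000 counts. Leaving out the iHPC library of mouse 24261, and single mice from the pooled Tfec ratio, was chosen after seeing the data. A gene that the rule named is not reported here.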

Additional observations from a re-analysis of the deposited data

Results flagged for a closer look

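In 3 of the 20 combinations of a member and a group, the highest library stood apart from the other 5 by more than Dixon's limit. Chance passes that limit in about 1 in 20 groups of normally distributed values, which these CPM need not be. All 3 cases were of Tfec. The iHPC library of mouse 24380 held 7.04 CPM, from 2 counts, where the other 5 held 0, so that any count there would have passed the limit. The TLR7.1 RPM library of mouse 24107 held 185 CPM, where the other 5 held 16.0 to 57.4 CPM. The WT Mono library of mouse 24117 held 73.2 CPM, where the other 5 held 20.1 to 27.6 CPM.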

How the results depend on the processing

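None of the 106 results of list genes that the rule named changed sign under any alternative. Some member values near 0 did change sign as single mice were left out. Mitf ran from -0.57 to 0.19 in TLR7.1 over WT RPM, and Tfe3 from -0.05 to 0.05 in iHPC over TLR7.1 Mono. Of 360 fitted values of the 4 members 4 moved by more than the replicate spread. All 4 were Tfec in iHPC. Without libraries under 500000 counts, 5 in all, the log2 fold change was -9.70 over TLR7.1 RPM and -9.74 over TLR7.1 Mono, and leaving out single mice gave -9.43 to -6.24 and -9.68 to -7.20. Counts of genes called moved most with the fit to only the 12 libraries compared: 1753 genes and 19 list genes for iHPC over TLR7.1 RPM (2993 and 39 in the fit to all 30 libraries), 737 and 9 for TLR7.1 over WT Mono (232 and 1), and 160 and 0 for TLR7.1 over WT RPM (910 and 11). For TLR7.1 over WT RPM, no filter on low counts left 4 list genes, and leaving out single mice gave 584 to 1354 genes and 2 to 16 list genes. For TLR7.1 over WT Mono, DESeq2 called 2 list genes, as did the fit without shallow libraries. The causes were not tested. With the mouse as a replicate block, 2800 genes and 37 list genes were called for iHPC over TLR7.1 RPM, and Tfec, Mitf, Tfeb and Tfe3 had log2 fold changes of -6.92, -1.82, 0.66 and -0.13 there. The block called 51 list genes for iHPC over TLR7.1 Mono, 60 for RPM over Mono in TLR7.1 and 67 in WT mice, and ended the call of 6 of 106 named-gene results. Over all alternatives 77 of the 106 kept their call. Depth limits the RPM values most: the library of 95002 counts held 1 count of Tfeb.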

Other observations

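The highest Tfec levels of 3 groups came from 2 mice, both aged 14 weeks and both collected on 13 December, a pattern noticed after the values were seen. Mouse 24107 (TLR7.1) held 185 CPM of Tfec in RPM and 132 CPM in Mono, the highest of its genotype in both populations. Mouse 24117 (WT) held 141 CPM in RPM and 73.2 CPM in Mono, the second highest and the highest of its genotype. The other 2 mice of that date, aged 15 weeks (TLR7.1, mouse 24068) and 15.7 weeks (WT, mouse 24028), held 26.0 and 132 CPM in RPM and 85.3 and 20.5 CPM in Mono. The iHPC library of mouse 24107 held 0 counts of Tfec.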
